A study of Mus musculus with 8 samples.

Results

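The 8 genes described here make up the Lin28/let-7 axis and the Igf2bp family in mouse embryonic stem cells (ESCs): Lin28a, Lin28b, Dis3l2, Hmga2, Trim71, Igf2bp1, Igf2bp2 and Igf2bp3. They were taken by symbol from the 52550 genes in the files, all 8 were found, and all 8 passed the filter on low counts that left 20749 genes for testing. Messenger RNA of control and Dax1KO ESCs was sequenced in both 2i/LIF and LIF/serum, which gave 4 groups of 2 libraries. In 2i/LIF, N2B27 medium held 1 µM of the MEK inhibitor PD0325901, 3 µM of the GSK3 inhibitor CHIR99021 and LIF at 10 ng/ml. In LIF/serum, DMEM held 15% FBS and LIF at 10 ng/ml. All samples were labelled passage 3 and as mouse ESCs. The Dax1KO cells came from a single CRISPR/Cas9 colony that was isolated in 2i/LIF, no knockout colony was obtained in LIF/serum, and the knockout cells could not be passaged continuously there. The genotype is therefore represented by 1 clone, and nothing states that libraries of a group came from separate cultures, so p-values measure the spread between these libraries, which may be technical.

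LIN28 proteins bind the precursors of let-7 microRNAs and block their maturation, and they recruit terminal uridylyl transferases whose oligouridine tail marks the precursor for decay by the exonuclease DIS3L2. Mature let-7 represses messages with seed matches in their 3′ UTR, and these include Lin28a and Lin28b themselves, Hmga2, Trim71 and the Igf2bp genes. In ESCs the axis is known for keeping mature let-7 low, and LIN28 is known to increase as cells leave the naive state. In bulk samples of this kind, fewer cells of a type and less RNA per cell cannot be told apart.

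The let-7 family is shown first because its seed ties the members together. RefSeq mature sequences (GRCm38.p6) gave 9 distinct let-7 family 5p sequences, and all 9 had the same bases at positions 2 to 8. The seed is in capitals in the following examples, which differ only outside it.
let-7a-5p: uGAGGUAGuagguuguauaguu
let-7g-5p: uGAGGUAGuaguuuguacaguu
miR-98-5p: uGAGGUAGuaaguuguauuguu
Among 1679 mature mouse names in the table, 11 carried this seed, the 9 of the family plus let-7k and miR-1961.

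A match to the seed is CTACCTC in the message, and a stronger match adds a final A, CTACCTCA. The longest annotated 3′ UTR of each gene was read on the strand of the transcript. At least 1 match was present in 7 of the 8 members, against 9.03% of 21004 genes with a 3′ UTR. Lin28b, Hmga2, Trim71 and Igf2bp1 held 4 matches each, a number reached by only 12 genes of the 21004. Lin28a held 2, Igf2bp2 and Igf2bp3 held 1 each, and Dis3l2 held 0 in a 3′ UTR of 350 bases. The 3′ UTRs of the 7 genes with a match ran from 1784 to 6337 bases, and among genes with a 3′ UTR of 80% to 125% of the member's length a match was found in 12.1% for Igf2bp2 up to 34.4% for Igf2bp1. The members with a match were chosen as known let-7 targets, and Dis3l2 for its role in precursor decay, so these counts are a description and no test.

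The first 8-base match of each of the 7 genes is printed with the 15 bases before it, the match in capitals, from GRCm38 and on the minus strand in each case.
Lin28a, chr4:134005189-134005211: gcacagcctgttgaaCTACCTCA
Lin28b, chr10:45381022-45381044: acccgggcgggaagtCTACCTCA
Hmga2, chr10:120364224-120364246: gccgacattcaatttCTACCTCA
Trim71, chr9:114512472-114512494: aacattgcctaagtcCTACCTCA
Igf2bp1, chr11:95961778-95961800: gctgtgcgaagtaaaCTACCTCA
Igf2bp2, chr16:22059473-22059495: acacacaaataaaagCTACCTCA
Igf2bp3, chr6:49086787-49086809: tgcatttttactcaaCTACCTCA
In Lin28b and Hmga2 the match lay 36 and 58 bases after the stop codon, and the other 3 matches of both genes were of 7 bases. In Trim71 all 4 matches were of 8 bases, and they lay as 2 close pairs at 166 and 262 bases and at 3591 and 3617 bases after the stop codon.

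**Figure D1:**
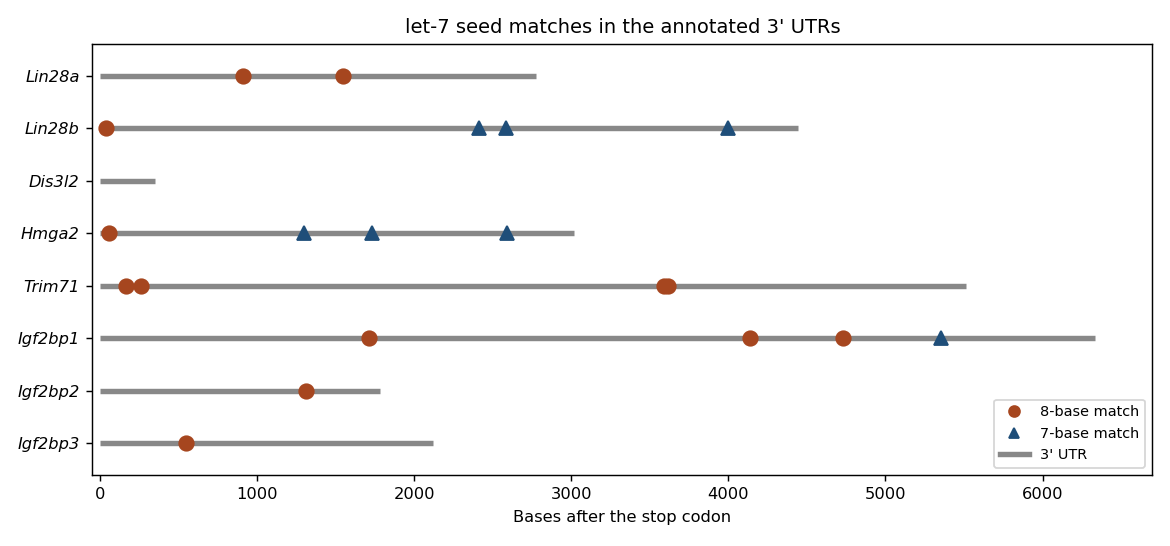
Positions of let-7 seed matches in the longest annotated 3′ UTR of each member. The horizontal axis gives bases after the stop codon, grey bars the 3′ UTR, circles 8-base matches and triangles 7-base matches. Lin28b, Hmga2, Trim71 and Igf2bp1 carry 4 matches each and Dis3l2 none.

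Mature let-7 was not measured, since the libraries were made from mRNA. The 12 let-7 family hairpin genes had 0 to 4 counts in each library, below any level that could be compared. The hairpins are the molecules that LIN28 binds, at a GGAG motif in the terminal loop. Of the 12 hairpins in RefSeq, 9 held GGAG on their own strand outside the mature arms, and Mir98, Mirlet7b and Mirlet7c-2 did not. GGAG was found in 44.5% of all 1005 hairpins in the table, where mature arms were searched as well. Of the genes that host or adjoin let-7 genes, Wdr82 and Huwe1 passed the filter, and neither was a DEG between Dax1KO and control in either medium.

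Dax1 (Nr0b1), the targeted gene, had 456 and 300 counts in control and 0 and 0 counts in Dax1KO in 2i/LIF. It had 5095 and 4689 counts in control against 14 and 6 in Dax1KO in LIF/serum, so the labels and the targeted message go together. Total counts lay between 35911384 and 37286251 per library. The 8 ESC markers were present in all libraries, with summed levels of 176474 to 217897 normalized counts. Single markers moved in both directions under these sums. In LIF/serum 1 of the 8 was upregulated by Dax1KO, Klf4 (log2 fold change 0.79, adjusted p = 0.0107), against 8.87% of all genes tested. In 2i/LIF edgeR called 0 and DESeq2 called 3. There Tfcp2l1 gave 0.79 (adjusted p = 0.0512), Zfp42 -0.56 (adjusted p = 0.113) and Sox2 -0.50 (adjusted p = 0.0649) by edgeR. Primitive endoderm markers summed to 1057 and 1072 normalized counts in control and 1082 and 1393 in Dax1KO in 2i/LIF. In LIF/serum they summed to 3916 and 5488 in control and 12283 and 14567 in Dax1KO, where Dab2 held the largest part (7089 to 8266). In LIF/serum 5 of the 6 were upregulated by Dax1KO, against 8.87% of all genes tested. In 2i/LIF 1 of the 6 was, against 1.51%, namely Dab2 (log2 fold change 1.28, adjusted p = 0.0423). Gata6 gave -1.13 there (adjusted p = 0.0951). None of the 6 was at 0 in both libraries of a group. The part of such cells in the results in LIF/serum given below was not tested.

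Levels of different genes were compared on the RPKM scale, with library sizes scaled by TMM and the length of all annotated exons. In control cells in LIF/serum, Lin28a was highest of the members at 93.6 ± 4.19 (SD, n = 2), followed by Igf2bp1 at 46.7 ± 4.88 and Trim71 at 19.5 ± 3.15 on this scale. Igf2bp2 stood at 11.1 ± 0.75, Igf2bp3 at 10.1 ± 0.38, Lin28b at 4.73 ± 0.35, Hmga2 at 4.40 ± 1.28 and Dis3l2 at 2.79 ± 0.33. The libraries of Lin28b and Hmga2 overlapped, and the other neighbours in this order did not. In control cells in 2i/LIF the order was different, with Igf2bp1 highest at 31.8 ± 1.02 per kilobase and Lin28a behind 4 members at 9.15 ± 2.38. Trim71, Igf2bp3 and Igf2bp2 lay between them at 14.8 ± 0.78, 14.6 ± 0.48 and 13.8 ± 2.44, and their libraries overlapped from neighbour to neighbour. Lin28b was the lowest member there at 1.40 ± 0.21, below Hmga2 at 2.88 ± 0.17 and Dis3l2 at 5.46 ± 0.71. Against all genes tested that had an exon length, Lin28a per kilobase exceeded 97.0% of them in LIF/serum control cells and 72.6% in 2i/LIF control cells, whereas Igf2bp1 exceeded 93.6% and 90.9%.

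In Dax1KO cells the same scale gave Lin28a 72.4 ± 2.77, Igf2bp1 37.02 ± 4.24, Trim71 20.4 ± 4.32 and Igf2bp3 15.6 ± 0.98 in LIF/serum. In 2i/LIF it gave Igf2bp1 31.1 ± 1.44, Igf2bp3 19.5 ± 0.78, Trim71 13.2 ± 0.021 and Lin28a 10.5 ± 6.61 per kilobase. Igf2bp3 was thus the second member in Dax1KO cells in 2i/LIF, above Trim71 without overlap of their libraries. With the longest annotated transcript as the length, Igf2bp3 came before Igf2bp1 in that group, and Trim71, Igf2bp2 and Igf2bp3 changed places in others.

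**Figure D2:**
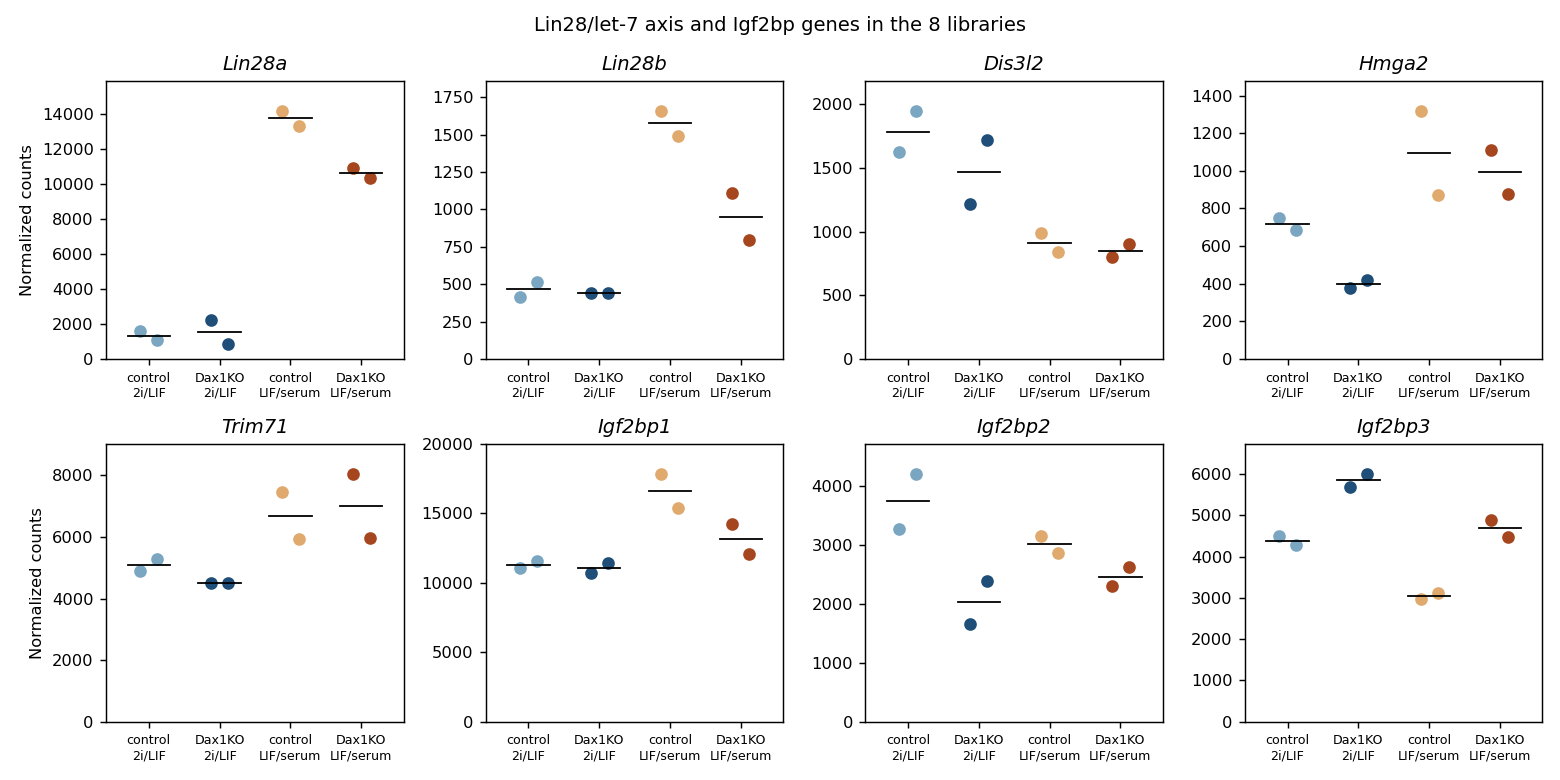
Normalized counts (vertical axes, from 0, a separate scale for each gene) of the 8 members in the 8 libraries. Points are libraries and lines group means. The 4 LIF/serum libraries lie above the 4 libraries in 2i/LIF for Lin28a, Lin28b, Hmga2, Igf2bp1 and Trim71 and below them for Dis3l2.

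The largest differences among the members were between media. Control cells in 2i/LIF were compared with control cells in LIF/serum, and Dax1KO cells likewise. DEGs were genes that passed an adjusted P threshold of 0.05 and differed by 1.2-fold or more. In control cells 5 of the 8 members were DEGs, 2 higher and 3 lower in 2i/LIF, against 36.8% of all genes tested (20.3% higher and 16.5% lower). In Dax1KO cells 5 of the 8 were DEGs, 1 higher and 4 lower, against 28.9% (15.2% and 13.7%). The median log2 fold change of the members was -0.48 in control cells and -0.46 in Dax1KO cells, and that of all genes tested was 0.01 in each.

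Lin28a (ENSMUSG00000050966.9, chr4:134003330-134018841, minus strand) encodes the LIN28 paralog that acts mainly in the cytoplasm. It had 1586 and 1096 counts in control and 2298 and 882 in Dax1KO in 2i/LIF, and 13368 and 12472 in control and 11415 and 10610 in Dax1KO in LIF/serum. All 4 libraries in 2i/LIF were far below all 4 in LIF/serum. In control cells Lin28a was 10.2-fold lower in 2i/LIF than in LIF/serum (log2 fold change -3.35, standard error 0.41, adjusted p = 0.000573). In Dax1KO cells it was 6.87-fold lower (log2 fold change -2.78, standard error 0.40, adjusted p = 0.00168). Every alternative left both calls in place, with log2 fold changes of -3.64 to -3.15 and of -3.62 to -2.25.

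Lin28b (ENSMUSG00000063804.8, chr10:45376620-45486395, minus strand), the paralog known to act in the nucleus as well, was low in 2i/LIF too. Its counts were 416 and 514 in control and 457 and 454 in Dax1KO in 2i/LIF, against 1565 and 1400 in control and 1157 and 816 in Dax1KO in LIF/serum. The 4 libraries in 2i/LIF lay close together, and those in LIF/serum split by genotype. In control cells Lin28b was 3.39-fold lower in 2i/LIF (log2 fold change -1.76, standard error 0.20, adjusted p = 0.000393), and in Dax1KO cells 2.14-fold lower (log2 fold change -1.10, standard error 0.19, adjusted p = 0.00452). Per kilobase, Lin28a exceeded Lin28b by 8.65 and 4.84 times in control and by 11.4 and 4.41 times in Dax1KO in 2i/LIF. The ratio in LIF/serum was 19.4 and 20.2 in control and 22.4 and 29.5 in Dax1KO, so Lin28a outweighed Lin28b in all 8 libraries, and by more in each library in LIF/serum. With the longest annotated transcript as length the ratios were smaller, with means of 107 for Lin28a and 7.94 for Lin28b in LIF/serum control.

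Dis3l2 (ENSMUSG00000053333.15, chr1:86703808-87050095, plus strand), the exonuclease that degrades uridylated let-7 precursors, went the other way. It had 1618 and 1948 counts in control and 1248 and 1762 in Dax1KO in 2i/LIF, against 933 and 786 in control and 834 and 927 in Dax1KO in LIF/serum. Every library in 2i/LIF was above every library in LIF/serum. The log2 fold change of 2i/LIF over LIF/serum was 0.97 in control cells (standard error 0.20, adjusted p = 0.00673) and 0.79 in Dax1KO cells (standard error 0.20, adjusted p = 0.0204). In control cells the call was lost without replicate 2 in 2i/LIF (0.78, adjusted p = 0.0564) or without replicate 2 in LIF/serum (0.83, adjusted p = 0.0501). In Dax1KO cells it was lost without replicate 2 in 2i/LIF (0.51, adjusted p = 0.152), without replicate 1 in LIF/serum (0.70, adjusted p = 0.116) and without replicate 2 in LIF/serum (0.88, adjusted p = 0.0643), and with all libraries but no filter on low counts (0.79, adjusted p = 0.0507). Gm6136 lies within Dis3l2 on the opposite strand and had 2432 to 4447 normalized counts. Since no source states whether strand was used in counting, reads of the 2 genes cannot be told apart where their exons overlap. No other gene matched any part of the longest annotated transcript of Dis3l2 at 95% identity. Other transcripts of Dis3l2 are not covered by that result.

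Hmga2 (ENSMUSG00000056758.14, chr10:120361275-120476469, minus strand), a chromatin protein of the AT-hook family and a classic let-7 target, had 745 and 688 counts in control and 390 and 428 in Dax1KO in 2i/LIF. In LIF/serum it had 1244 and 815 in control and 1163 and 899 in Dax1KO. The Dax1KO libraries in 2i/LIF were the lowest of the 8. In Dax1KO cells Hmga2 was 2.49-fold lower in 2i/LIF than in LIF/serum (log2 fold change -1.32, standard error 0.22, adjusted p = 0.00375). In control cells the log2 value was -0.61 (standard error 0.22, adjusted p = 0.0610), which passed without control replicate 2 in LIF/serum (-0.90, adjusted p = 0.0145) and with DESeq2 (-0.62, adjusted p = 0.0318). With all libraries in edgeR it also passed with TMM factors without chromosome 6 (adjusted p = 0.0498), with at least 10 counts in every library (adjusted p = 0.0392) and with counts divided by 3 (adjusted p = 0.0373). Without control replicate 1 in LIF/serum it was -0.28 (adjusted p = 0.334).

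Trim71 (ENSMUSG00000079259.2, chr9:114507133-114564369, minus strand), an RNA-binding ubiquitin ligase whose nematode counterpart lin-41 is an original let-7 target, had 4884 and 5273 counts in control and 4644 and 4611 in Dax1KO in 2i/LIF, and 7029 and 5556 in control and 8423 and 6115 in Dax1KO in LIF/serum. In Dax1KO cells it was 1.55-fold lower in 2i/LIF (log2 fold change -0.64, standard error 0.17, adjusted p = 0.0242). This call was lost without Dax1KO replicate 1 in LIF/serum (-0.40, adjusted p = 0.149), and without either Dax1KO library in 2i/LIF (-0.64, adjusted p = 0.113, and -0.63, adjusted p = 0.123). It was also lost with all libraries but no filter on low counts (-0.64, adjusted p = 0.0569). In control cells the value was -0.40 (standard error 0.17, adjusted p = 0.0992), which did not pass. It was -0.22 without control replicate 1 in LIF/serum (adjusted p = 0.400) and -0.58 without control replicate 2 there (adjusted p = 0.0560).

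The 3 Igf2bp genes encode RNA-binding proteins that stabilise and localise messages, and they differed from each other between media. Igf2bp1 (ENSMUSG00000013415.9, chr11:95957163-96005940, minus strand) had 11016 and 11557 counts in control and 11008 and 11695 in Dax1KO in 2i/LIF, and 16844 and 14440 in control and 14879 and 12411 in Dax1KO in LIF/serum. In control cells it was 1.47-fold lower in 2i/LIF (log2 fold change -0.56, standard error 0.12, adjusted p = 0.00954), a call lost without control replicate 1 in 2i/LIF (-0.52, adjusted p = 0.0589). In Dax1KO cells the value was -0.25 (standard error 0.12, adjusted p = 0.172).

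Igf2bp3 (ENSMUSG00000029814.10, chr6:49085223-49214957, minus strand) had 4475 and 4283 counts in control and 5841 and 6150 in Dax1KO in 2i/LIF, against 2792 and 2925 in control and 5109 and 4587 in Dax1KO in LIF/serum. In control cells it was 1.44-fold higher in 2i/LIF than in LIF/serum (log2 fold change 0.53, standard error 0.11, adjusted p = 0.00595). In Dax1KO cells the value was 0.32 (standard error 0.11, adjusted p = 0.0530), which passed without control replicate 1 in LIF/serum (0.32, adjusted p = 0.0473). Igf2bp2 (ENSMUSG00000033581.16, chr16:22059009-22163299, minus strand) had 3268 and 4216 counts in control and 1712 and 2451 in Dax1KO in 2i/LIF, and 2980 and 2691 in control and 2404 and 2697 in Dax1KO in LIF/serum. Its log2 fold change of 2i/LIF over LIF/serum was 0.31 in control cells (standard error 0.20, adjusted p = 0.247) and -0.28 in Dax1KO cells (standard error 0.20, adjusted p = 0.334), and neither passed.

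**Figure D3:**
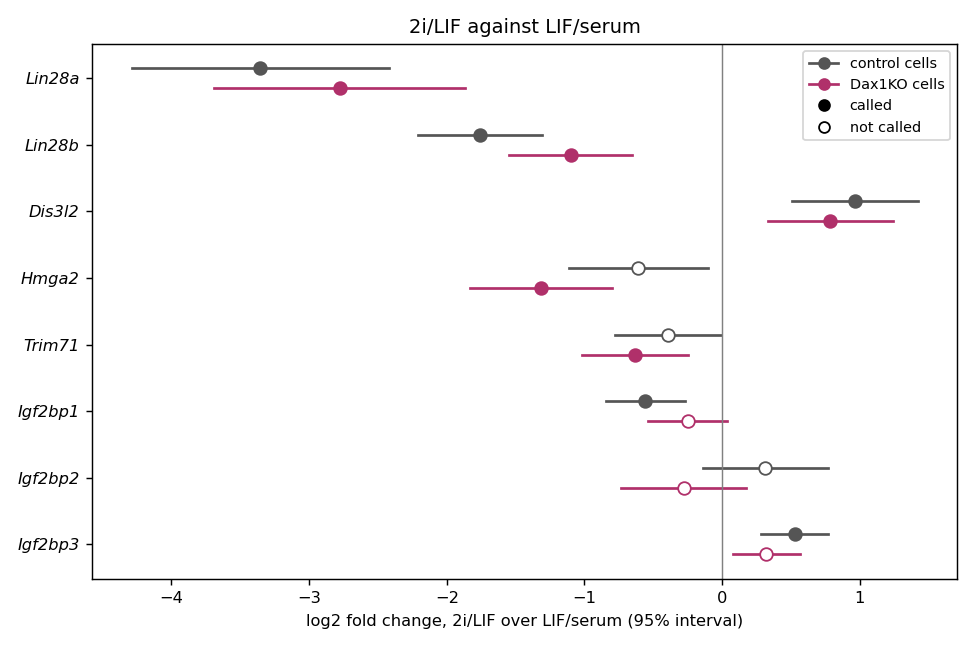
log2 fold change of 2i/LIF over LIF/serum with its 95% interval (horizontal axis) for each member in control cells and in Dax1KO cells. Filled circles are DEGs. Lin28a lies furthest below 0 in both cell lines, followed by Lin28b in control cells and Hmga2 in Dax1KO cells, and Dis3l2 lies above 0 in both.

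Dax1KO cells were then compared with control cells within each medium. In 2i/LIF 0 of the 8 members were DEGs by edgeR, against 3.16% of all genes tested (1.51% higher and 1.65% lower). An unadjusted p under 0.05 was reached by 3 members, Hmga2, Igf2bp2 and Igf2bp3, against 17.9% of all genes tested, and DESeq2 called 2, Hmga2 and Igf2bp2, among 1280 of the genes that edgeR tested. In LIF/serum 2 of the 8 were DEGs, Igf2bp3 upregulated and Lin28b downregulated, against 14.7% of all genes tested (8.87% higher and 5.78% lower). With a 2-fold threshold the number was 0 in both media, against 1.97% of all genes tested in 2i/LIF and 6.84% in LIF/serum. The median log2 fold change over the members was -0.12 in 2i/LIF and -0.21 in LIF/serum, and over all genes tested -0.01 and 0.01. The comparisons between media above used the same libraries as these.

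Of the LIN28 genes, Lin28b fell in Dax1KO cells in LIF/serum, from 1576 ± 117 to 951 ± 220 normalized counts (SD, n = 2). Both Dax1KO libraries were below both control libraries there. This was a 1.66-fold decrease (log2 fold change -0.73, standard error 0.19, adjusted p = 0.0404). The call was close to the threshold, and it was lost when any library but Dax1KO replicate 1 in LIF/serum was left out. Within LIF/serum the value was -0.51 without Dax1KO replicate 2 (adjusted p = 0.207), -0.65 without control replicate 1 (adjusted p = 0.130) and -0.81 without control replicate 2 (adjusted p = 0.0851). It was -0.73 to -0.74 without one of the libraries in 2i/LIF, with adjusted p of 0.0522 and 0.0501 for the control replicates 1 and 2 and 0.0782 and 0.0779 for the Dax1KO replicates 1 and 2. Without the filter on low counts, and in a fit of LIF/serum alone, it did not pass either (adjusted p = 0.0869 and 0.0704).

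In 2i/LIF Lin28b had 466 ± 68.6 normalized counts in control and 444 ± 0.54 in Dax1KO (SD, n = 2), with a log2 fold change of -0.07 (95% interval -0.51 to 0.38, adjusted p = 0.917). The difference of the Dax1KO effect between media, LIF/serum minus 2i/LIF, was -0.66 on the log2 scale for Lin28b (standard error 0.27, adjusted p = 0.237), so a difference between media was not established. None of the 8 members passed that test, against 2.87% of all genes tested, and Lin28b was the only member with an unadjusted p under 0.05. DESeq2 called 0 members for that difference.

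Lin28a was 13738 ± 615 normalized counts in control and 10633 ± 407 in Dax1KO in LIF/serum (SD, n = 2). The libraries did not overlap, and the log2 fold change of -0.37 (95% interval -1.22 to 0.48, adjusted p = 0.545) did not pass. In 2i/LIF the Dax1KO libraries of Lin28a stood on both sides of the control libraries, at 1549 ± 971 against 1343 ± 349 normalized counts, and the log2 fold change was 0.21 (95% interval -0.66 to 1.07, adjusted p = 0.857). Without Dax1KO replicate 1, the library with 2298 counts, it was -0.64 (adjusted p = 0.334). Dis3l2 had log2 fold changes of -0.28 in 2i/LIF (95% interval -0.73 to 0.17, adjusted p = 0.530) and -0.10 in LIF/serum (95% interval -0.56 to 0.35, adjusted p = 0.773), with overlapping libraries in both media.

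Hmga2 had 718 ± 41.6 normalized counts in control and 399 ± 27.6 in Dax1KO in 2i/LIF (SD, n = 2), without overlap. Its log2 fold change was -0.85 (95% interval -1.36 to -0.34), which missed the threshold in edgeR (adjusted p = 0.0875) and passed in DESeq2 (-0.84, adjusted p = 0.0127). It also passed in edgeR without control replicate 1 or 2 in LIF/serum (adjusted p = 0.0495 and 0.0482). In LIF/serum the libraries overlapped, at 1094 ± 318 against 995 ± 167 normalized counts, and the log2 fold change was -0.14 (adjusted p = 0.719). The difference between media for Hmga2 was 0.71 (95% interval -0.01 to 1.42, adjusted p = 0.265). Trim71 gave -0.17 in 2i/LIF (95% interval -0.56 to 0.21, adjusted p = 0.683) and 0.07 in LIF/serum (95% interval -0.32 to 0.45, adjusted p = 0.828) on the log2 fold change scale.

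Igf2bp2 had 3747 ± 665 normalized counts in control and 2030 ± 517 in Dax1KO in 2i/LIF (SD, n = 2), and both Dax1KO libraries were below both control libraries. Its log2 fold change came to -0.88 (standard error 0.20, 95% interval -1.34 to -0.43). By edgeR this just missed the threshold (adjusted p = 0.0568). It passed in DESeq2 (adjusted p = 0.000996), with at least 10 counts required in every library (adjusted p = 0.0398) and with all counts divided by 3 (adjusted p = 0.0424). In LIF/serum Igf2bp2 gave -0.29 (95% interval -0.74 to 0.16, adjusted p = 0.360). The difference between media was 0.59 (95% interval -0.05 to 1.23, adjusted p = 0.296).

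Igf2bp3 was the member that rose in Dax1KO cells. In LIF/serum it went from 3040 ± 113 normalized counts in control to 4680 ± 294 in Dax1KO (SD, n = 2), a 1.54-fold increase (log2 fold change 0.62, standard error 0.11, adjusted p = 0.00993). The call was lost without Dax1KO replicate 1 in LIF/serum (0.56, adjusted p = 0.0530). In 2i/LIF Igf2bp3 had 4386 ± 144 normalized counts in control and 5846 ± 233 in Dax1KO, again without overlap, with a log2 fold change of 0.41 (95% interval 0.17 to 0.66, adjusted p = 0.0796) that did not pass. The difference between media was 0.21 (95% interval -0.13 to 0.55, adjusted p = 0.509).

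Igf2bp3 is the only member on chromosome 6, and the genes of this chromosome were raised together in Dax1KO cells. Over the 1054 tested genes of chromosome 6 the median value was 0.44 on the log2 scale in 2i/LIF and 0.52 in LIF/serum, against -0.03 and -0.0002 for all other genes. Igf2bp3, at 0.41 and 0.62, lay near these medians in both media. Of the chromosome's genes, 9.87% were upregulated DEGs in 2i/LIF and 28.3% in LIF/serum, against 1.51% and 8.87% of all genes tested. The nearest tested protein-coding genes, 5 on each side of Igf2bp3, were read as its 10 neighbours. Of these, 9 had a value above 0 in 2i/LIF and 7 in LIF/serum. Their medians were 0.37 and 0.61, and 0 of them were DEGs, against 3.16% and 14.7% of all genes tested. Some of their values were uncertain, such as Tmem176b at 7.20 (adjusted p = 0.0709) and Tmem176a at -2.54 (adjusted p = 0.344) in LIF/serum. The part of the chromosome's shift in the value of Igf2bp3 was not tested. Malsu1 overlaps 1529 bases of Igf2bp3 on the opposite strand, had 836.5 to 1662 normalized counts, and gave log2 fold changes of 0.46 and 0.54 that were no DEGs (adjusted p = 0.374 and 0.174). Malsu1 matched 35.2% of the longest annotated transcript of Igf2bp3 at 95% identity. Reads of this pair cannot be told apart where the genes overlap.

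Igf2bp1 did not pass in either medium. It gave -0.03 in 2i/LIF (95% interval -0.31 to 0.25, adjusted p = 0.946) and -0.34 in LIF/serum (95% interval -0.62 to -0.05, adjusted p = 0.108), where both Dax1KO libraries were below both control libraries. Per kilobase, the 3 genes summed to 60.2 ± 2.99 in control and 58.1 ± 4.12 in Dax1KO in 2i/LIF, and to 68.0 ± 5.26 and 61.7 ± 4.36 in LIF/serum (SD, n = 2). Within this sum the share of Igf2bp3 was 25.8% and 22.9% in control and 34.4% and 32.9% in Dax1KO in 2i/LIF. The share in LIF/serum was 13.8% and 16.2% in control and 25.2% and 25.5% in Dax1KO. The share of Igf2bp2 was 20.8% and 24.9% in control and 11.1% and 14.4% in Dax1KO in 2i/LIF, and that of Igf2bp1 was 70.0% and 67.4% in control and 61.8% and 58.0% in Dax1KO in LIF/serum. The sum lay between 55.2 and 71.7 per kilobase over the 8 libraries, and in each medium Igf2bp3 took a larger share of it in both Dax1KO libraries than in both control libraries.

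**Figure D4:**
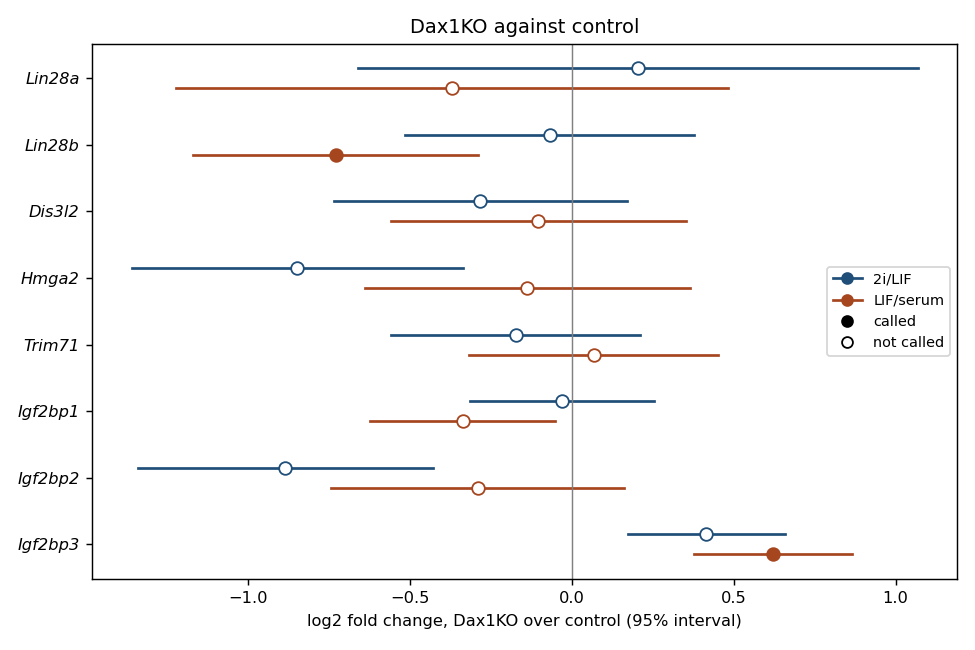
log2 fold change of Dax1KO over control with its 95% interval (horizontal axis) for each member in 2i/LIF and in LIF/serum. Filled circles are DEGs by edgeR. Lin28b (-0.73) and Igf2bp3 (0.62) in LIF/serum are filled, and the intervals of Hmga2, Igf2bp2 and Igf2bp3 in 2i/LIF lie off 0 without passing the adjusted threshold.

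The genes whose normalized counts over the 8 libraries were most like those of these DEGs were found among 11958 protein-coding genes. The points fall in 4 groups, so the values describe likeness over groups. For Lin28b they were Ipo5, Nop14 and Lrfn4, with Pearson correlations of 0.996, 0.996 and 0.995. For Igf2bp3 they were Ttc7 (0.990), Slc37a3 (0.988) and Iars2 (0.987), of which Slc37a3 is on chromosome 6 as well.

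The other genes of the pathway were taken from lists. Of 20 genes for let-7 processing and silencing, from the Microprocessor genes Drosha and Dgcr8 to the Argonautes and the uridylyl transferases Tut4 and Tut7, 0 were DEGs of Dax1KO in 2i/LIF by edgeR and 0 by DESeq2, with 4 at an unadjusted p under 0.05, a share near the 17.9% of all genes tested. In LIF/serum 2 of the 20 were DEGs, against 14.7% of all genes tested. Ago4, an Argonaute, had 24 and 31 counts in control and 57 and 93 in Dax1KO (log2 fold change 1.31, standard error 0.32, adjusted p = 0.0338). Exosc10, a nuclease of the nuclear exosome, had 5706 and 5051 counts in control and 4240 and 4109 in Dax1KO (log2 fold change -0.50, standard error 0.11, adjusted p = 0.0197). The median of the list was 0.05 in 2i/LIF and -0.15 in LIF/serum. Between media in control cells 5 of the 20 were higher and 2 lower in 2i/LIF, against 20.3% and 16.5% of all genes tested. In Dax1KO cells 6 were higher and 0 lower, against 15.2% and 13.7%. Among those higher in control cells were Ago4 (2.31, adjusted p = 0.00112), Ago2 (1.04, adjusted p = 0.00971) and Tut4 (0.61, adjusted p = 0.0157), named after their values were seen.

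Of 29 further let-7 targets 28 were tested, and 2 were DEGs of Dax1KO in 2i/LIF, both downregulated, against 1.65% of all genes tested that were lower. Ccnd1, the G1 cyclin D1, had 5776 and 5353 counts in control and 1412 and 1227 in Dax1KO in 2i/LIF (log2 fold change -2.12, standard error 0.18, adjusted p = 0.00436). Cdc34, a ubiquitin-conjugating enzyme, fell by 0.54 on the log2 scale (adjusted p = 0.0461). In LIF/serum 6 of the 28 were DEGs, 1 upregulated and 5 downregulated, with a list median of -0.23, against 8.87% and 5.78% of all genes tested. Mycn, a MYC family transcription factor, had 8530 and 8399 counts in control and 3482 and 3225 in Dax1KO in LIF/serum (log2 fold change -1.48, standard error 0.10, adjusted p = 0.000883). Ccnd1 fell in LIF/serum too (-1.42, adjusted p = 0.00382), as did the homeobox gene Pbx3 (-1.07, adjusted p = 0.0170) and the kinase Map4k4 (-0.63, adjusted p = 0.0152). The other downregulated target was Hmga1 (-0.40, adjusted p = 0.0355), named after its values were seen. The upregulated target was Igdcc3, a receptor of the DCC family (1.19, adjusted p = 0.00841).

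For 2 of these 28 targets the Dax1KO effect differed between media, against 2.87% of all genes tested. Mycn gave -0.17 in 2i/LIF and -1.48 in LIF/serum, a difference of -1.30 (adjusted p = 0.00876). Igdcc3 gave -0.41 in 2i/LIF and 1.19 in LIF/serum, a difference of 1.60 (adjusted p = 0.0276).

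The Igf2bp proteins are named for Igf2, and their bound RNAs formed a list of 11. In 2i/LIF 1 of the 11 was a DEG, Actb, which encodes beta-actin (log2 fold change 0.59, adjusted p = 0.0380), against 3.16% of all genes tested. In LIF/serum 3 were, 2 upregulated and 1 downregulated, against 8.87% and 5.78% of all genes tested. The kinase gene Mapk4 (1.19, adjusted p = 0.0217) and the ubiquitin ligase subunit gene Btrc (0.57, adjusted p = 0.0330) were upregulated. The Hedgehog effector Gli1 (-1.54, adjusted p = 0.0107) was downregulated. The Dax1KO effect differed between media for 2 of the 11, against 2.87% of all genes tested. Gli1 gave 1.18 in 2i/LIF (adjusted p = 0.0616), a difference of -2.72 (adjusted p = 0.0182). Actb gave -0.27 in LIF/serum (adjusted p = 0.155), a difference of -0.86 (adjusted p = 0.0382). Igf2 itself had 42 to 143 counts per library and was no DEG of Dax1KO in either medium (adjusted p = 0.616 in 2i/LIF and 0.956 in LIF/serum). H19, the noncoding RNA next to Igf2 that carries let-7 sites, had 29 and 48 counts in control in 2i/LIF against 2469 and 1961 in LIF/serum (log2 fold change -5.93, adjusted p = 0.00169) and was named after its values were seen.

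Of 9 genes linked to Trim71, 0 were DEGs of Dax1KO in 2i/LIF by edgeR, 1 reached an unadjusted p under 0.05, against 17.9% of all genes tested, and DESeq2 called 1. In LIF/serum 4 were, 2 in each direction, against 8.87% higher and 5.78% lower among all genes tested. Cdkn1a, the cell cycle inhibitor p21 whose message TRIM71 represses, had 2089 and 2251 counts in control and 4982 and 5551 in Dax1KO in LIF/serum (log2 fold change 1.14, standard error 0.15, adjusted p = 0.00446), and 7327 and 5782 against 6139 and 5330 in 2i/LIF (-0.23, adjusted p = 0.481). Its difference between media was 1.37 (adjusted p = 0.0224). Plxnb2, a plexin receptor, rose in LIF/serum (1.10, adjusted p = 0.00517), and the early response factor Egr1 (-1.58, adjusted p = 0.0446) and Shcbp1 (-0.60, adjusted p = 0.0266) fell there.

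**Figure D5:**
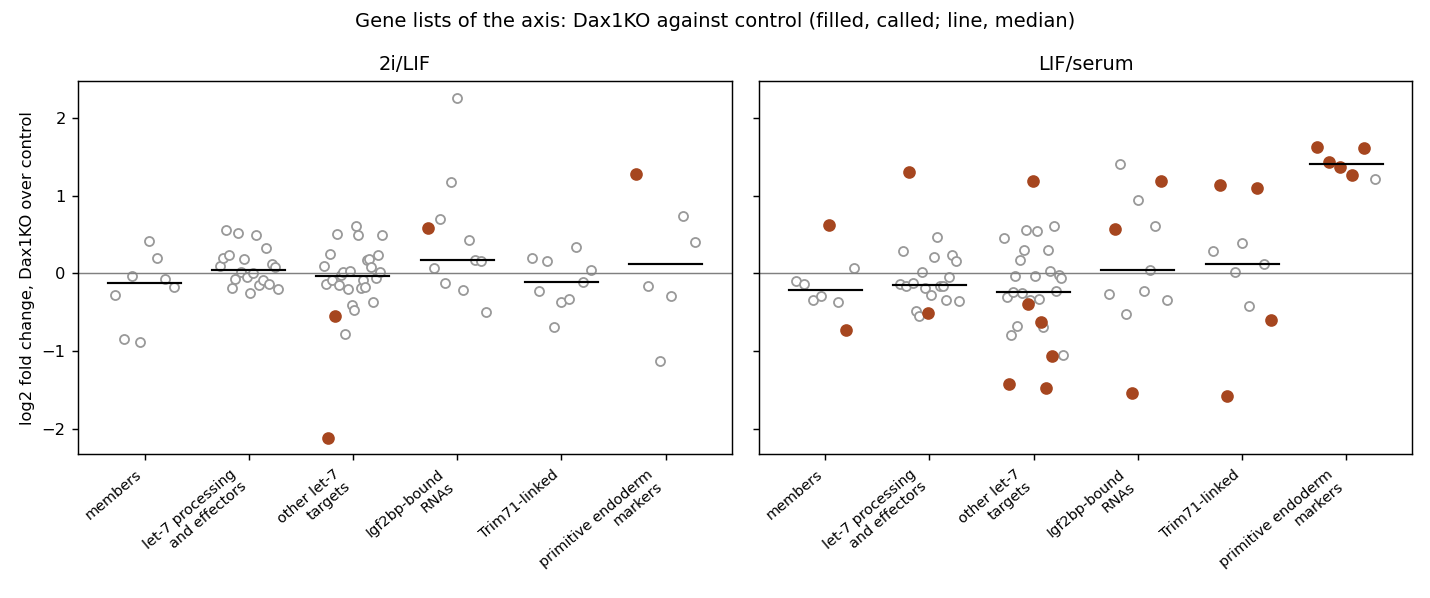
log2 fold change of Dax1KO over control (vertical axis) in 2i/LIF and LIF/serum for the members, the pathway lists and the primitive endoderm markers. Points are genes, filled where they were DEGs, and lines are list medians. In LIF/serum the let-7 targets and the RNAs bound by Igf2bp proteins lie on both sides of 0, and the primitive endoderm markers lie above 0.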

How the data were processed

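mRNA-seq of 8 libraries (2 in each of the 4 groups) was used. The authors deposited raw counts per gene for each library, as whole numbers. The submitters' processing notes name mm10, HISAT2 2.0.4 and DESeq2. The counter, the annotation and the use of strand are not given in the sources used here. Values of 3 were more frequent than values of 2 or 4, so low counts may not stand for independent fragments, and counts divided by 3 were tried. Of 52550 identifiers, 52403 were found in GENCODE M21 (GRCm38), which gave symbols, coordinates, exon lengths and 3′ UTRs.

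Libraries were grouped by their labels. The test was run in edgeR 4.0.16 (R 4.3.3) with filterByExpr, TMM factors (0.96 to 1.04) and a quasi-likelihood test in a single fit of the 4 groups, with Benjamini-Hochberg adjustment over the 20749 genes tested. All adjusted p in the text come from this test unless DESeq2 1.42.0 is named. A DEG passed an adjusted P threshold of 0.05 and differed by 1.2-fold or more, while for differences between media only the P threshold was used. The fit had 4.04 prior degrees of freedom and a biological coefficient of variation of 20.9%. Normalized counts are counts scaled to the mean library, and levels per kilobase used all annotated exons. Overlapping and near-identical genes were sought with the annotation and with blastn 2.17.0 at 95% identity.

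On simulated data 200 genes were changed by a log2 fold change of 1. In 2i/LIF 34 of the 194 that passed the filter were recovered (17.5%) among 20111 genes (1 of 35 calls false). In LIF/serum 45 of 197 were recovered (22.8%) among 20098 genes (3 of 48 calls false). The median estimates were 1 and 1.003. All other genes were left unchanged, so the adjusted threshold was harder to pass than in the data, with 656 and 3041 DEGs. The changed genes were drawn at random from all tested genes, whatever their level. The recovery therefore does not measure how often changes of the members were missed.

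The members and gene lists were chosen with earlier results of these data known. The members were all named, and from each list up to 4 increases and 4 decreases of a Dax1KO comparison (3 for marker lists), plus the 3 genes most like each member called, among genes with a mean of at least 100 normalized counts. The alternatives were DESeq2, RLE factors, TMM factors without chromosome 6, no filter, at least 10 counts in every library, counts divided by 3, the replicate number as a block, separate fits of the media, the longest transcript as length, and each library left out. Mature miRNAs and hairpins came from RefSeq. Mirlet7bhg, a let-7 host gene, was not matched. Some genes of the lists are not reported here and were left out of the counts over them, and protein sequences were not used here.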

Additional observations from a re-analysis of the deposited data

How the results depend on the processing

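With 2 libraries a group, the calls near the threshold moved with the setting. Over the alternatives that kept all libraries, 283 of the members' log2 fold changes kept direction and side of the threshold, 9 newly passed, 4 no longer passed and 0 changed sign. With a library left out, 287 did so, 4 newly passed, 17 no longer passed and 12 changed sign. No scaling moved the median of all genes by over 0.1. In 2i/LIF (0 members) DESeq2 called 2 members, and 1 each was called with at least 10 counts in every library, counts divided by 3 and the replicate block. Leaving out a library gave 0 to 1. In LIF/serum (2 members) 1 was called without the filter and in a fit of LIF/serum alone, and each library left out gave 1. Between media in Dax1KO cells (5 members) 3 were called without the filter and 3 to 6 with a library left out.

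Over all genes, the 656 DEGs in 2i/LIF became 1281 with DESeq2, 121 without the filter and 38 to 673 with a library left out. The 3041 in LIF/serum became 1842 without the filter, 1743 in a fit of LIF/serum alone and 728 to 2496 with a library left out. The 596 differences between media became 1292, 119 and 36 to 344 with DESeq2, without the filter and with a library left out. Between media, leaving out a library gave 5057 to 7120 genes in control cells (7641) and 2986 to 6286 in Dax1KO cells (5999).

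The signs that turned belonged to values that were no DEGs, in each case with a library left out. In 2i/LIF Lin28a ranged from -0.64 to 0.73, Lin28b from -0.21 to 0.10 and Igf2bp1 from -0.078 to 0.017. In LIF/serum Dis3l2 ranged from -0.23 to 0.022, Hmga2 from -0.42 to 0.19 and Trim71 from -0.16 to 0.27. The difference between media ranged from -1.10 to 0.27 for Lin28a and from -0.048 to 0.46 for Dis3l2. The cause was not tested.

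Same-numbered libraries deviated together at correlations of only 0.069 (2i/LIF) and 0.093 (LIF/serum), with 2 pairs each, so the numbers were not taken to pair the samples. The replicate block gave Igf2bp2 in 2i/LIF -0.89 (adjusted p = 0.0455), and 573, 3218 and 552 genes for 2i/LIF, LIF/serum and the difference between media. It changed no other call of a member.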

Other observations

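The spread of Lin28a in Dax1KO cells in 2i/LIF was shared by H19. Dax1KO replicate 1 in 2i/LIF had 2298 counts of Lin28a and 347 of H19, and replicate 2 had 882 and 34. H19 had 29 and 48 counts in control in that medium. Lin28b, with 457 and 454 counts in the same Dax1KO libraries, did not show this spread. H19 was chosen here after its values were seen.

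Of the 28 further let-7 targets tested, 5 were higher and 7 lower in 2i/LIF than in LIF/serum in control cells, with a list median of 0.23, against 20.3% and 16.5% of all genes tested. In Dax1KO cells 6 were higher and 4 lower, against 15.2% and 13.7%. Myc had 76 and 46 counts in control cells in 2i/LIF against 1666 and 1672 in LIF/serum (log2 fold change -4.86, adjusted p = 5.18e-05), and the cyclin gene Ccnd2 gave -3.66 (adjusted p = 0.000236). The growth regulator Plagl1 (2.30, adjusted p = 0.000853) and Igdcc3 (2.23, adjusted p = 0.000134) were higher in 2i/LIF. These 4 genes were chosen after their values were seen.

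Other cell type markers gave these sums of normalized counts. Formative epiblast markers summed to 6981 and 7504 in control and 6068 and 7260 in Dax1KO in 2i/LIF, with Fgf5 at 0 in all 4 libraries there, and to 15778 and 18126 against 15738 and 19434 in LIF/serum. In 2i/LIF Hmga2 and Igf2bp2 were lower in both Dax1KO libraries. The median log2 fold change of this list was -0.68 there, against -0.01 over all genes tested. Sfrp2 was the only DEG by edgeR (-1.21, adjusted p = 0.0429), and DESeq2 called 3 of the 7. Otx2 gave -0.97 (adjusted p = 0.0580), Lef1 -2.14 (adjusted p = 0.136) and Dnmt3a -0.68 (adjusted p = 0.360). Pou3f1 gave 0.04 (adjusted p = 0.964) and Dnmt3b 0.47 (adjusted p = 0.206). Dnmt3b held the largest part of the sums in 2i/LIF, at 3022 and 3077 in control and 3777 to 4657 in Dax1KO. Trophectoderm markers summed to 1558 and 2193 in control and 3722 and 3916 in Dax1KO in 2i/LIF, with Cdx2 at 0 there, and to 2534 and 2603 in control and 3799 and 4444 in Dax1KO in LIF/serum. Most of the difference in 2i/LIF was Krt8 (460 and 912 against 1764 and 2062) and Krt18 (335 and 362 against 791 and 727), while Gata3 had 132 and 116 against 38 and 54 (-1.44, adjusted p = 0.123). In LIF/serum, where Lin28b and Igf2bp3 were DEGs, neural markers summed to 1163 and 1239 in control and 809 and 814 in Dax1KO, mesoderm markers to 141 and 234 against 474 and 476, and fibroblast markers to 458 and 486 against 1434 and 1498, with Col3a1 and Lum at 0 in all 4 libraries. In 2i/LIF neural markers summed to 3397 and 3419 in control and 3070 and 3224 in Dax1KO, mesoderm markers to 265 and 431 against 168 and 227, and fibroblast markers to 1862 and 2349 against 1235 and 1311. Most of the neural sum in 2i/LIF was Nes, at 2717 and 2841 in control and 2616 and 2798 in Dax1KO. There Sox1 gave -0.87 (adjusted p = 0.181), Sox3 -0.88 (adjusted p = 0.106) and Pax6 0.38 (adjusted p = 0.619). In LIF/serum 1 of the 5 neural markers was a DEG, Pax6 (-2.30, adjusted p = 0.00619), against 5.78% of all genes tested that were lower. Most of the mesoderm difference in LIF/serum was Hand1, at 104 and 71 in control and 352 and 389 in Dax1KO, with Mixl1 at -0.39 (adjusted p = 0.692) and Tbx6 at -0.19 (adjusted p = 0.908). Most of the fibroblast sum was Thy1, at 413 and 409 in control and 1288 and 1250 in Dax1KO in LIF/serum, and at 1726 and 2189 against 1091 and 1086 in 2i/LIF. Col1a1 rose in LIF/serum too, at 21.2 and 45.9 in control and 164 and 131 in Dax1KO (2.13, adjusted p = 0.0108). Of the 4 fibroblast markers tested, 2 were upregulated DEGs in LIF/serum, against 8.87% of all genes tested. The part of all these markers in the members' values was not tested.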
